A study of Mus musculus with 2 samples.

Results

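Dividing epithelial cells of the mouse colon were described from 10x single-cell libraries in which transcripts were counted by unique molecular identifiers (UMIs). A barcode was taken as such a cell when at least 4 of 8 genes of mitosis (Mki67, Top2a, Birc5, Cdk1, Ube2c, Cenpa, Ccnb2 and Nusap1) had a UMI and when Epcam, Krt8, Krt18, Krt19, Cldn7 and Lgals4 together made up at least 0.3% of its UMIs. Only barcodes showing 200 genes or more, with no more than 50% of UMIs from mitochondrial genes, were considered. The members were thus chosen by their own counts of these genes, which are described below without a test. The rule found 342 cells, 109 in the library of the transgenic Alzheimer's disease (AD) model and 233 in the wild-type (WT) library. They were part of 4961 barcodes that met the epithelial criterion, called gated cells here (2968 AD and 1993 WT), and of 9669 barcodes that met the limits on genes and mitochondrial UMIs (6395 AD and 3274 WT).

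The AD model is named APP/PS1-21 in the series' design text, a line that carries mutant human amyloid precursor protein and presenilin transgenes driven by a neuronal promoter, and the WT library carries no such label. No treatment is given for either library, and the labels do not state age, sex or how many mice were used. Per the labels minced colon went through a digest in trypsin plus DNase I and red cell lysis, while the design text speaks of colonic epithelium. The series asks about the gut of this model. With 1 library per genotype there was no spread between mice and no test, so each difference below is one between these 2 libraries. Intervals in parentheses are exact 95% intervals and cover counting error only.

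In the colon, epithelial cells divide in the lower part of the crypts. Stem cells at the crypt base give rise to transit-amplifying cells, which divide several more times and then become absorptive colonocytes or secretory cells such as mucus-producing goblet cells. Genes of DNA replication are transcribed mostly around the start of S phase under E2F factors, and genes of mitosis peak later, in G2 and M phase, under the MuvB complex with B-Myb and FoxM1 and under the CCAAT-binding factor NF-Y. Replication-dependent histone genes are transcribed in S phase to package the new DNA.

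Promoter sequences of genes that the results below turn on are shown for these 3 gene classes, as 250 bases before to 50 bases after each start, 5′ to 3′ on the gene's strand (RefSeq, GRCm38.p6). Capitals in the first 4 and the last mark the CCAAT box (CCAAT or ATTGG) and the cell cycle homology region, CHR (TTTGAA or TTCAAA), on either strand. Capitals in Mcm6 and Hells mark E2F motifs, which were searched as TTTCCCGC, TTTCGCGC, TTTGCCGC and TTTGGCGC and their reverse complements. Ccnb2, the cyclin B2 gene at chr9:70421505-70421804 (minus strand), held 3 CCAAT boxes and 2 CHR motifs. Cdk1, the mitotic kinase at chr10:69352863-69353162 (minus strand), also held 3 and 2, and 1 E2F match that is not in capitals. Ube2c, the ubiquitin-conjugating enzyme of the anaphase-promoting complex at chr2:164769679-164769978 (plus strand), held 6 CCAAT boxes, of which an overlapping pair shares bases, and 1 CHR. Ccnb1, cyclin B1 at chr13:100786437-100786736 (minus strand), held 2 CCAAT boxes and no CHR letters. Mcm6, a subunit of the replicative helicase at chr1:128359656-128359955 (minus strand), held 3 E2F matches, 1 pair of them overlapping, and 2 CCAAT boxes that are not in capitals. Hells, a chromatin remodeller at chr19:38930740-38931039 (plus strand), held 1 E2F match. H2ac8, a histone H2A gene at chr13:23571171-23571470 (minus strand), held 2 CCAAT boxes and 1 CHR.
Ccnb2: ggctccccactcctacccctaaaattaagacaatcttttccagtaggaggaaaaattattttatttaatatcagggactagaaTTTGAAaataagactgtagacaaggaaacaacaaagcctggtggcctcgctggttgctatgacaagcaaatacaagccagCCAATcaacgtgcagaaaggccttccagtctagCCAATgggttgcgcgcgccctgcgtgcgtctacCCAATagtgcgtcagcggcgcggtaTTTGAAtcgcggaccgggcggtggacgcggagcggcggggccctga
Cdk1: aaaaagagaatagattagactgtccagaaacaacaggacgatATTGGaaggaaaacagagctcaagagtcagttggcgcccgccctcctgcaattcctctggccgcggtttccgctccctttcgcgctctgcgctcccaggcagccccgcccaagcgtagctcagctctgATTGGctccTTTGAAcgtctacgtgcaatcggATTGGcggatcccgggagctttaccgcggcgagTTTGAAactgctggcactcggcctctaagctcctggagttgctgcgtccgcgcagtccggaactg
Ube2c: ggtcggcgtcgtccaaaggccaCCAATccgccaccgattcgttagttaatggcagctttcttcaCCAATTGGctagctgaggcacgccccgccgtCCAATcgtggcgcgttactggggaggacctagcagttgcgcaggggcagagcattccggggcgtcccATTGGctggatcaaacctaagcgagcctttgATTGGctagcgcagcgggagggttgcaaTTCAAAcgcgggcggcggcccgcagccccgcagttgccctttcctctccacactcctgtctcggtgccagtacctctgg
Ccnb1: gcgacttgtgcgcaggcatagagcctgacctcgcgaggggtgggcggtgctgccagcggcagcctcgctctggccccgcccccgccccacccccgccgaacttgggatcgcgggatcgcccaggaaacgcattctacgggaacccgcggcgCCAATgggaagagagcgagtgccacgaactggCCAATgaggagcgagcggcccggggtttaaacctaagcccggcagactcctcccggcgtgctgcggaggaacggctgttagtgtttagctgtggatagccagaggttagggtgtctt
Mcm6: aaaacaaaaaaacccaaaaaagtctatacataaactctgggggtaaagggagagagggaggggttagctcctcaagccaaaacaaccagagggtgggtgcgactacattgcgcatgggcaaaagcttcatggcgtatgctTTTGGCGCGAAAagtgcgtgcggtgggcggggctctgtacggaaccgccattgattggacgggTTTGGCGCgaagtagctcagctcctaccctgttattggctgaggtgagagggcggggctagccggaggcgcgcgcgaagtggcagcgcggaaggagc
Hells: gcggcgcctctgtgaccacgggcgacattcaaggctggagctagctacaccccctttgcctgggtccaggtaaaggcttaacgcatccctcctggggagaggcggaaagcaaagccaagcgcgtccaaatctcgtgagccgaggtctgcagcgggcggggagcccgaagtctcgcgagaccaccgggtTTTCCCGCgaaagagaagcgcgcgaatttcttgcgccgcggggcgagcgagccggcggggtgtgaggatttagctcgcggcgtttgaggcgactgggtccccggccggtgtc
H2ac8: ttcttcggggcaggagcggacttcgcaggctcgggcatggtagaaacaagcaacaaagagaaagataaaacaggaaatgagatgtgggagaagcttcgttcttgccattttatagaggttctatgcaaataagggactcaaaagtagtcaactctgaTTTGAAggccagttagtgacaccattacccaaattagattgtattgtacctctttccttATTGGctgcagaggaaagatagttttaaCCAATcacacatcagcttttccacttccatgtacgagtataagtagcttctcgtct

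The table held promoters for all 8 mitosis genes of the rule, 77 of 86 genes of the mitosis lists, 41 of 51 of the replication lists and 55 of 62 histone genes, with more than 1 start for some. Of the 8 mitosis genes, 6 promoters (75%) held a CCAAT box and 6 a CHR. Over the mitosis lists (spindle, kinetochore, checkpoint and related genes) a CCAAT box stood in 58 of 86 promoters (67.4%), a CHR in 49 (57.0%) and an E2F motif in 9 (10.5%). Over the replication lists a CCAAT box stood in 28 of 50 promoters (56%), a CHR in 11 (22%) and an E2F motif in 18 (36%). Histone promoters held a CCAAT box in 48 of 56 (85.7%), a CHR in 25 (44.6%) and an E2F motif in 10 (17.9%). Among all 32851 promoters of the table, 37.4% held a CCAAT box, 17.9% a CHR and 2.26% an E2F motif. A match is a run of letters and not a measured binding site.

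Apart from Top2a, which was lower in AD, the mitosis genes that chose the cells were at similar levels in both libraries' dividing cells. Levels are UMIs per 10000 non-mitochondrial UMIs, summed over the cells of a library, and are given as a description because the rule used these genes. Mki67, the antigen Ki-67 that coats mitotic chromosomes, stood at 2.66 in AD and 2.73 in WT dividing cells, and was detected in 90.8% of AD and 93.6% of WT dividing cells. Ube2c stood at 3.53 in AD and 3.90 in WT cells, and Ccnb2 at 2.20 in AD and 1.93 in WT cells. Top2a, the topoisomerase that untangles sister chromatids, stood at 2.04 in AD and 2.93 in WT cells. Birc5, a subunit of the chromosomal passenger complex, stood at 1.51 in AD and 1.62 in WT cells, and Cdk1 at 1.19 in AD and 1.41 in WT cells. Cenpa, the centromeric histone, stood at 1.31 in AD and 1.34 in WT cells, and Nusap1, a spindle protein, at 1.06 in AD and 0.849 in WT cells. All 8 genes were detected in 18 AD and 43 WT cells, and exactly 4 of 8 in 22 AD and 41 WT cells.

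The epithelial genes were also used by the rule and are described. Epcam, the epithelial adhesion molecule, had a UMI in all 109 AD and all 233 WT cells, and the 6 epithelial genes together stood at 92.9 in AD and 116 in WT cells. Fibroblast-gene cells, barcodes with at least 3 of 6 fibroblast markers and under 0.1% epithelial UMIs, served as a measure of RNA from other cells. Their low epithelial level follows from that limit. They held Mki67 at 0.108 in 698 AD cells (29 UMIs) and no Mki67 UMI in 240 WT cells. The most mitosis genes of the 8 found in such a cell was 8 in AD and 2 in WT. The source of the Mki67 UMIs in the AD fibroblast-gene cells was not tested. Cells just outside the rule, with 3 of the 8 genes, numbered 33 in AD and 57 in WT, and their spindle genes summed to 4.34 in AD and 5.22 in WT cells. Cells just inside, with 4 of the 8, had spindle sums of 7.58 in AD and 7.64 in WT cells.

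Transcripts of plasma cells were more frequent in the AD members. Jchain, which joins secreted antibody, had a UMI in 96.3% of AD dividing cells at 13.02 per 10000 and in 33.9% of WT dividing cells at 0.248. The immunoglobulin gene Igha stood at 52.2 in AD and 1.15 in WT dividing cells, and 66.7% of the AD UMIs came from 5 cells. In fibroblast-gene cells the summed level of Jchain was 105 in AD and 0.304 in WT. Few AD cells carried that sum, since the median per cell was 6.14 in AD (0 to 1721) and 0 in WT (0 to 10.4). At least 2 immune markers other than Jchain were found in 12 AD (11.01%) and 3 WT (1.29%) dividing cells. T cell markers, at least 2 per cell, were found in 0 AD and 0 WT dividing cells, and in each library 3 of the 6 measured T markers had no UMI in any dividing cell. B cell markers, at least 2, were found in 4 AD and 0 WT dividing cells, and fibroblast markers in 14 AD and 4 WT. The part of these transcripts in the differences below was not tested beyond the alternatives without such cells. The doublet caller marked 1 AD and 7 WT barcodes, under 0.5% of cells, and had therefore not worked. The libraries shared 7 barcode sequences, of which 0 were AD and 2 were WT dividing cells.

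Dividing cells were a smaller share of the gated cells in the AD library. They made up 3.67% (3.03 to 4.41) of gated cells in AD and 11.7% (10.3 to 13.2) in WT, a ratio of 0.314 (0.248 to 0.396). With at most 25% mitochondrial UMIs, 87 of 1616 AD cells (5.38%, 4.33 to 6.60) and 116 of 542 WT cells (21.4%, 18.02 to 25.1) were dividing, a ratio of 0.252 (0.188 to 0.335). At a limit of 10%, 35 of 412 AD cells (8.50%) and 14 of 100 WT cells (14%) were dividing, and the interval of the ratio, 0.607 (0.318 to 1.22), reached past 1. The median mitochondrial share was 14.2% in AD and 25.2% in WT dividing cells, and 23.5% in AD and 36.4% in WT non-dividing gated cells. Its part in the ratio was not tested beyond these limits. Which layers of the colon entered each digest was not measured.

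The share rose with depth in both libraries. A more deeply sequenced cell can show more of the 8 genes, and the part of this in the rise was not tested. Dividing cells had a median of 17088 UMIs in AD (2040 to 55665) and 17608 in WT (2594 to 84623), against medians of 3685 in AD and 3376 in WT non-dividing gated cells. Among cells with 20000 UMIs or more, 46 of 328 AD cells (14.02%) and 102 of 273 WT cells (37.4%) were dividing, a ratio of 0.375 (0.259 to 0.537). From 10000 to under 20000 UMIs the shares were 6.14% in AD and 28.4% in WT, a ratio of 0.216 (0.140 to 0.328). From 5000 to under 10000 UMIs they were 4.19% in AD and 11.6% in WT, a ratio of 0.361 (0.199 to 0.636). From 2000 to under 5000 UMIs they were 2.03% in AD and 3.75% in WT, and the interval of the ratio reached past 1 (0.541, 0.213 to 1.28). With each cell thinned to 5000 UMIs, which left out 1609 AD and 1125 WT gated cells, the median ratio over 20 draws was 0.284 (range 0.243 to 0.330).

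**Figure D1:**
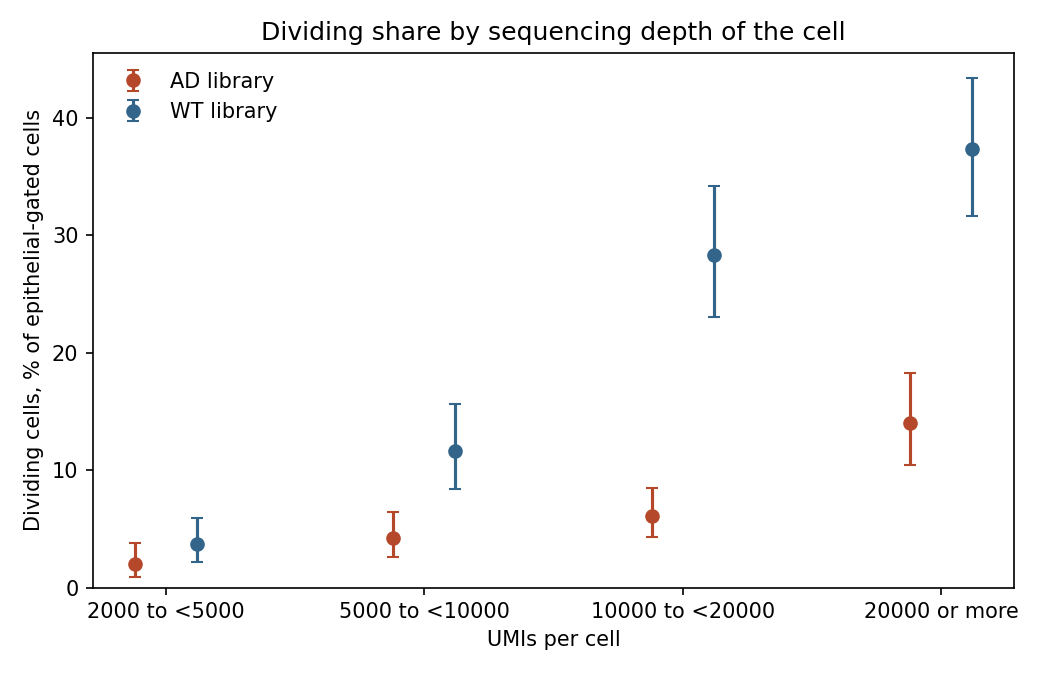
Share of epithelial-gated cells that were dividing (y axis, percent) by UMIs per cell (x axis), for the AD (left of each pair) and WT library. Points are shares and bars are exact 95% intervals. In the deepest bin the AD share was 14.02% and the WT share 37.4%.

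Within each library, dividing cells were higher than the other gated cells in genes of chromosome segregation and lower in genes of surface colonocytes. This comparison describes the cells that the rule picked and is not a test. Of 9125 genes with at least 100 UMIs over both cell groups in each library, 265 (2.9%) were at least 2-fold higher and 283 (3.1%) at least 2-fold lower in dividing cells of both libraries, and the median log2 ratio over all genes was 0.11 in AD and 0.04 in WT. Among the highest lists was that of spindle, motor and cytokinesis genes, with 20 of 21 compared genes 2-fold higher in both and a median log2 ratio of 3.50 in AD and 3.15 in WT. Hmmr, a spindle-pole protein, stood at 1.18 in dividing and 0.0301 in non-dividing AD cells, and at 0.996 in dividing and 0.0404 in non-dividing WT cells. Tpx2, which activates Aurora A on the spindle, had log2 ratios of 5.11 in AD and 4.05 in WT. Racgap1 and Anln, which act in cytokinesis, had 4.86 and 4.20 in AD and 4.42 and 4.47 in WT.

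Of the kinetochore and centromere genes, 14 of 18 were 2-fold higher in both libraries (median 2.47 in AD and 2.47 in WT). Cenpf reached 5.18 in AD and 3.60 in WT, and Cenpe, a kinetochore motor, 4.38 in AD and 4.03 in WT. Of the spindle checkpoint and passenger complex genes 4 of 6 were higher (median 3.66 in AD and 2.85 in WT). Among cyclins, kinases and phosphatases 10 of 18 were higher. Ccnb1 had a log2 ratio of 5.33 in AD and 4.11 in WT, and Ccna2, the cyclin of S and G2 phase, 5.07 in AD and 3.98 in WT. Cdc20, an activator of the anaphase-promoting complex, had 5.08 in AD and 3.79 in WT. The mitotic kinases Pbk and Melk had 5.19 and 4.83 in AD and 4.30 and 3.81 in WT. Of condensin and cohesin genes 7 of 16 were higher in both (median 1.00 in AD and 0.82 in WT). Chromatin proteins and tubulins had 16 of 21 higher, among them Hmgb2, a DNA-bending protein, at 2.64 in AD and 2.49 in WT, and Stmn1, which destabilises microtubules, at 2.64 in AD and 2.27 in WT.

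Replication genes were higher by less. Of licensing and origin firing genes 8 of 13 (median 1.21 in AD and 1.29 in WT) and of replication fork genes 12 of 23 (1.28 in AD and 1.11 in WT) were 2-fold higher in both libraries. Rrm2, the small subunit of ribonucleotide reductase, had a log2 ratio of 2.84 in AD and 2.40 in WT. Of nucleotide synthesis genes 6 of 19 were higher. Of 16 histone genes compared, 3 were higher in both (median 1.08 in AD and 0.45 in WT). Ribosome biogenesis genes had medians of 0.74 in AD and 0.94 in WT, with 2 of 23 past 2-fold.

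Cell cycle inhibitors were split, with 2 of 16 higher and 3 lower. Cdkn2c and Cdkn2d, inhibitors of the cyclin D kinases, were higher in dividing cells (Cdkn2c 1.69 in AD and 1.93 in WT, Cdkn2d 1.81 in AD and 1.48 in WT). Cdkn1a, the p53 target p21, was lower (-1.19 in AD and -1.05 in WT), as were Ccng2 (-1.59 in AD and -1.43 in WT) and Gadd45a (-1.39 in AD and -1.70 in WT). Glycolysis genes had medians of -0.57 in AD and -0.47 in WT.

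Genes of surface colonocytes, the oldest absorptive cells, were lowest, with 13 of 15 at least 2-fold lower in both libraries (median -2.93 in AD and -3.11 in WT). The chloride exchanger Slc26a3 had a log2 ratio of -2.80 in AD and -3.11 in WT, and Krt20, a keratin of mature cells, -2.96 in AD and -4.20 in WT. The sodium/proton exchanger Slc9a3 had 10 UMIs in AD and 42 in WT dividing cells and a log2 ratio of -4.05 in AD and -4.63 in WT. Tgm3, a transglutaminase, had the lowest mean ratio of the genes ranked, -5.69 in AD and -5.60 in WT. Saa1, an acute-phase protein, had -4.14 in AD and -5.93 in WT.

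**Figure D2:**
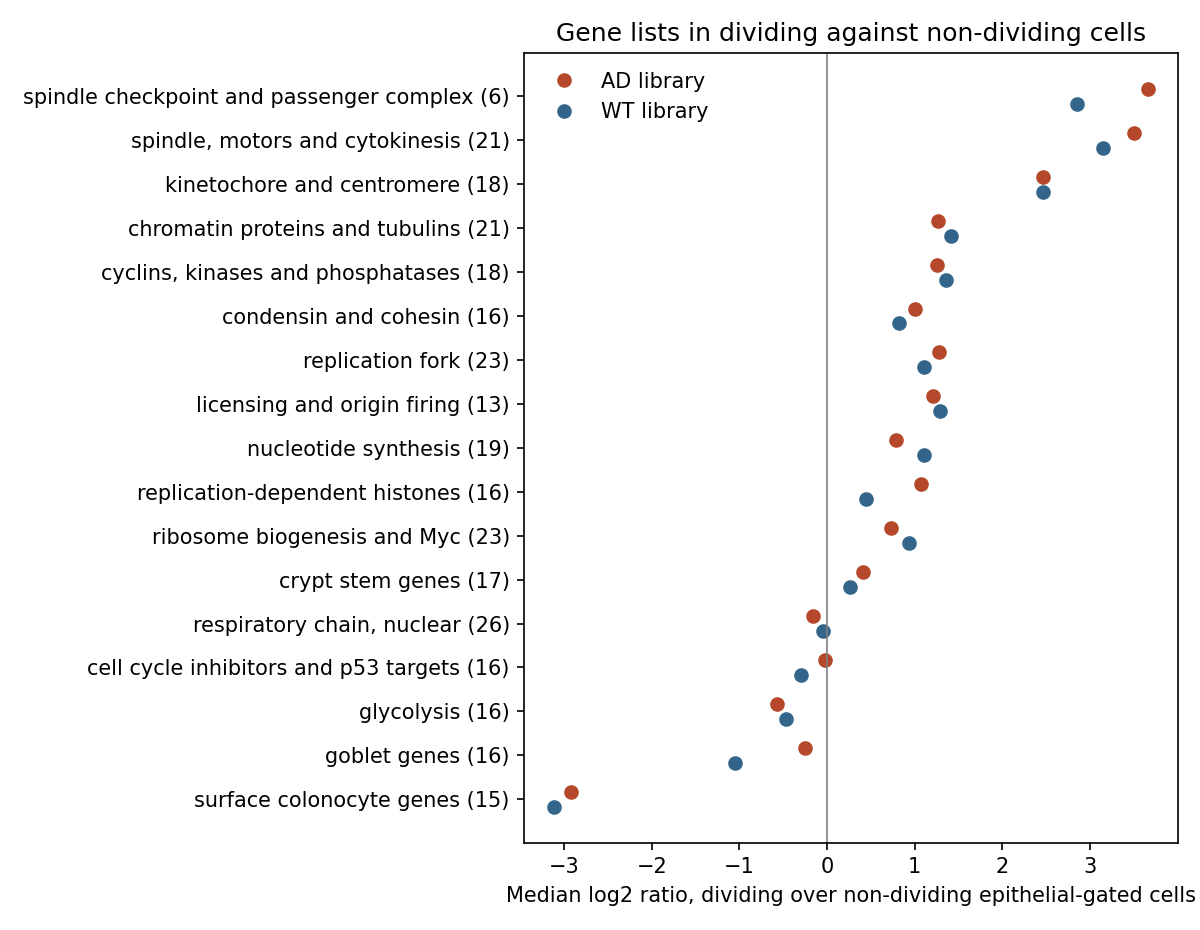
Median log2 ratio of dividing over non-dividing epithelial-gated cells (x axis) for gene lists (y axis, number of genes compared in parentheses), with AD above WT in each pair. Spindle genes had medians of 3.50 in AD and 3.15 in WT, and surface colonocyte genes -2.93 in AD and -3.11 in WT.

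The gated cells also hold mature cells, so dividing cells were set beside stem-like non-dividing cells, with at most 1 of the 8 mitosis genes and at least 3 of 10 stem markers (581 AD and 204 WT cells, with median depths of 14689 UMIs in AD and 15161 in WT). Of 7435 genes, 161 (2.17%) were 2-fold higher and 86 (1.16%) 2-fold lower in dividing cells of both libraries. Spindle genes had medians of 3.77 in AD and 3.48 in WT, with 16 of 17 genes higher. Replication fork genes had 1.03 in AD and 1.05 in WT, with 8 of 18 higher. Crypt stem genes had 0.17 in AD and -0.13 in WT, with 0 of 14 past 2-fold either way in both, but the stem-like cells were picked on markers that are in this list. Surface colonocyte genes had -1.46 in AD and -1.82 in WT, with 7 of 13 lower. The stem-like set can still hold mature cells. Its per-cell surface colonocyte sum had a median of 24.7 in AD and 21.4 in WT, against 14.6 in AD and 15.2 in WT dividing cells. Its goblet sum had a median of 29.8 in AD and 18.6 in WT, against 20.7 in AD and 9.95 in WT dividing cells. At least 3 of the 10 stem markers were found in 89 AD (81.7%) and 173 WT (74.2%) dividing cells. The most frequent were Slc12a2 (81.7% in AD and 70.8% in WT) and Sox9 (79.8% in AD and 70.4% in WT). The rarest were Lgr5 (12.8% in AD and 8.15% in WT) and Ascl2 (8.26% in AD and 2.58% in WT). These shares were not set beside those of all other gated cells, which had fewer UMIs.

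Between genotypes, the dividing cells of the AD library held less histone mRNA and more goblet cell mRNA. Of 7123 genes with at least 100 UMIs over both libraries' dividing cells, 102 (1.43%) were at least 2-fold higher and 106 (1.49%) at least 2-fold lower in AD, with a median log2 ratio of 0.00. Scaled to all UMIs instead of the non-mitochondrial ones, every log2 ratio moves up by 0.13 and the counts become 156 higher and 74 lower. For gene lists a limit of 1.5-fold was used, which 447 genes (6.28%) passed upward and 513 (7.2%) downward. Medians of 2 lists passed it, replication-dependent histones downward and goblet genes upward.

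All 24 compared histone genes had a log2 ratio below 0, with 18 past 1.5-fold and a median of -1.01. Near-identical copies make the counts of single histone genes uncertain, and most of their transcripts lack the poly(A) tail that these libraries capture. H2bc4, a histone H2B gene, stood at 5.23 in AD and 8.03 in WT dividing cells (log2 ratio -0.62, -0.72 to -0.51). H2ac8 stood at 0.204 in AD (36 UMIs) and 0.626 in WT (252 UMIs), a log2 ratio of -1.60 (-2.17 to -1.11). H4c17 and H4c18, both histone H4 genes, had -1.91 and -1.77, with 19 and 21 UMIs in AD and 167 and 167 in WT. H2ac8, H4c17 and H4c18 thus met the minimum through WT. Summed over all 62 genes of the list, without a minimum per gene, the level was 12.2 in AD and 21.7 in WT dividing cells. Per cell the sum had a median of 8.85 in AD (0 to 172) and 19.2 in WT (0 to 225), and the ranges overlapped. The difference was not limited to dividing cells, since non-dividing gated cells had sums of 8.12 in AD and 13.5 in WT and a list median of -1.60, with 18 of 23 genes past 1.5-fold downward. Over all 10878 genes compared in non-dividing gated cells, 11.1% were past 1.5-fold downward and 6% upward. Fibroblast-gene cells had sums of 2.28 in AD and 2.44 in WT.

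**Figure D3:**
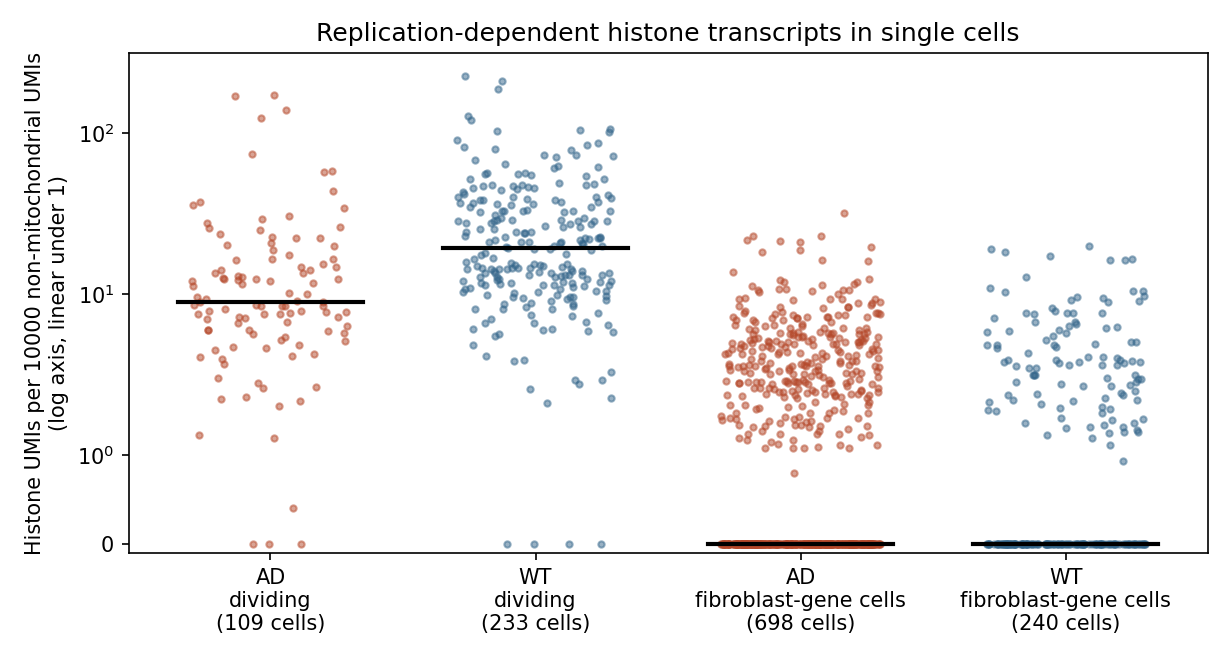
Replication-dependent histone UMIs per 10000 non-mitochondrial UMIs (y axis, log scale, linear under 1) in single dividing cells and fibroblast-gene cells, AD left of WT. Each point is a cell and black lines are medians, 8.85 in AD and 19.2 in WT dividing cells.

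Replication lists had medians below 0 that did not reach the list limit. Licensing and origin firing genes had a median of -0.54, with 6 of 14 past 1.5-fold downward and 0 upward, and replication fork genes -0.43, with 8 of 22 downward and 0 upward, all 22 below 0. In non-dividing gated cells the medians were -0.49 and -0.52. In the dividing cells that were not rich in Muc2 (under 30 Muc2 UMIs per 10000, 78 in AD and 204 in WT), the medians were -0.97 and -0.76, both past 1.5-fold. In the other dividing cells (31 in AD and 29 in WT) too few genes were compared for either median. The helicase subunit Mcm3 stood at 0.164 in AD and 0.387 in WT (log2 ratio -1.22), and Mcm5 at 0.368 in AD and 0.641 in WT (-0.79). Mcm6 stood at 0.589 in AD and 0.636 in WT, and its interval included 0 (-0.11, -0.45 to 0.22). Hells stood at 0.260 in AD and 0.683 in WT (-1.38, -1.87 to -0.94). Pcna, the sliding clamp, stood at 2.49 in AD and 2.91 in WT (-0.22). Rrm2 and Tyms, which make deoxynucleotides, did not share this direction or size. Their log2 ratios were 0.20 (-0.14 to 0.53) and -0.04 (-0.36 to 0.26).

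By cell, a panel of 8 S phase genes chosen after the values were seen (Mcm2, Mcm5, Mcm6, Gins2, Tyms, Rrm2, Hells and Cdc6) had at least 4 members detected in 21 of 109 AD dividing cells (19.3%, 12.3 to 27.9) and 80 of 233 WT dividing cells (34.3%, 28.3 to 40.8), a ratio of 0.561 (0.329 to 0.917). In non-dividing gated cells this was 1.57% in AD and 3.41% in WT, a ratio of 0.462 (0.307 to 0.691). Median depths of dividing cells were close, 17088 UMIs in AD and 17608 in WT, but upper quartiles were 26485 in AD and 31155 in WT. The part of depth in these shares was not tested. None of the panel was detected in 21 AD and 31 WT dividing cells. In dividing cells under 30 Muc2 UMIs per 10000, the panel's per-cell level had a median of 1.09 in AD and 2.70 in WT. Upper quartiles there were 2.96 in AD and 5.45 in WT. In the other dividing cells the median was 1.66 in AD and 2.11 in WT, but the upper quartile was higher in AD (6.14, and 3.85 in WT).

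Mitosis genes differed little between the libraries within dividing cells. The rule asked for such genes, so their levels are a description. Spindle genes had a median log2 ratio of 0.13, with 1 of 28 past 1.5-fold, and that 1 was Kif14, a kinesin of cytokinesis, at 0.108 in AD and 0.216 in WT (-0.98). Kinetochore genes had -0.12, with 2 of 23 past 1.5-fold. Cenpm stood at 0.0962 in AD and 0.320 in WT (-1.70), and Oip5, which loads Cenpa at centromeres, had 22 UMIs in 12 AD cells and 174 in 53 WT cells (-1.77). Condensin and cohesin genes had 0.08 and checkpoint genes -0.05, with 0 genes past 1.5-fold in both lists. The spindle list summed to 16.4 in AD and 15.8 in WT dividing cells.

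Among regulators of the cycle, Ccnd2, the cyclin D2 gene of G1 phase, stood at 1.49 in AD and 2.57 in WT dividing cells (-0.78, -0.99 to -0.59), while its log2 ratio in non-dividing gated cells was 0.03. Ccnd1 stood at 0.260 in AD and 0.273 in WT. Of 14 inhibitors and p53 targets 3 were past 1.5-fold upward and 0 downward. Trp53inp1 stood at 0.402 in AD and 0.137 in WT (1.55, 1.03 to 2.09), Gadd45a at 0.883 in AD and 0.526 in WT (0.75), and Cdkn1b, the inhibitor p27, at 0.724 in AD and 0.462 in WT (0.65, 0.31 to 0.98). Cdkn1a stood at 1.78 in AD and 1.93 in WT, and its interval included 0 (-0.12, -0.32 to 0.07).

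Lists of energy metabolism had medians below 0 that did not reach the list limit. All 14 glycolysis genes had a log2 ratio below 0 (median -0.51, 5 past 1.5-fold, and -0.31 in non-dividing gated cells). Gapdh stood at 3.19 in AD and 6.28 in WT (-0.98, -1.11 to -0.85), Pkm, the last enzyme of the pathway, at 2.66 in AD and 4.39 in WT (-0.72), and Ldha at 5.37 in AD and 7.95 in WT (-0.57). Nuclear genes of the respiratory chain had a median of -0.36, with 21 of 25 below 0 and 4 past 1.5-fold downward, and ribosome biogenesis genes -0.34, with 6 of 22. Ncl, the nucleolar protein nucleolin, stood at 4.53 in AD and 6.23 in WT (-0.46), and Npm1, also nucleolar, at 6.42 in AD and 5.80 in WT (0.15).

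**Figure D4:**
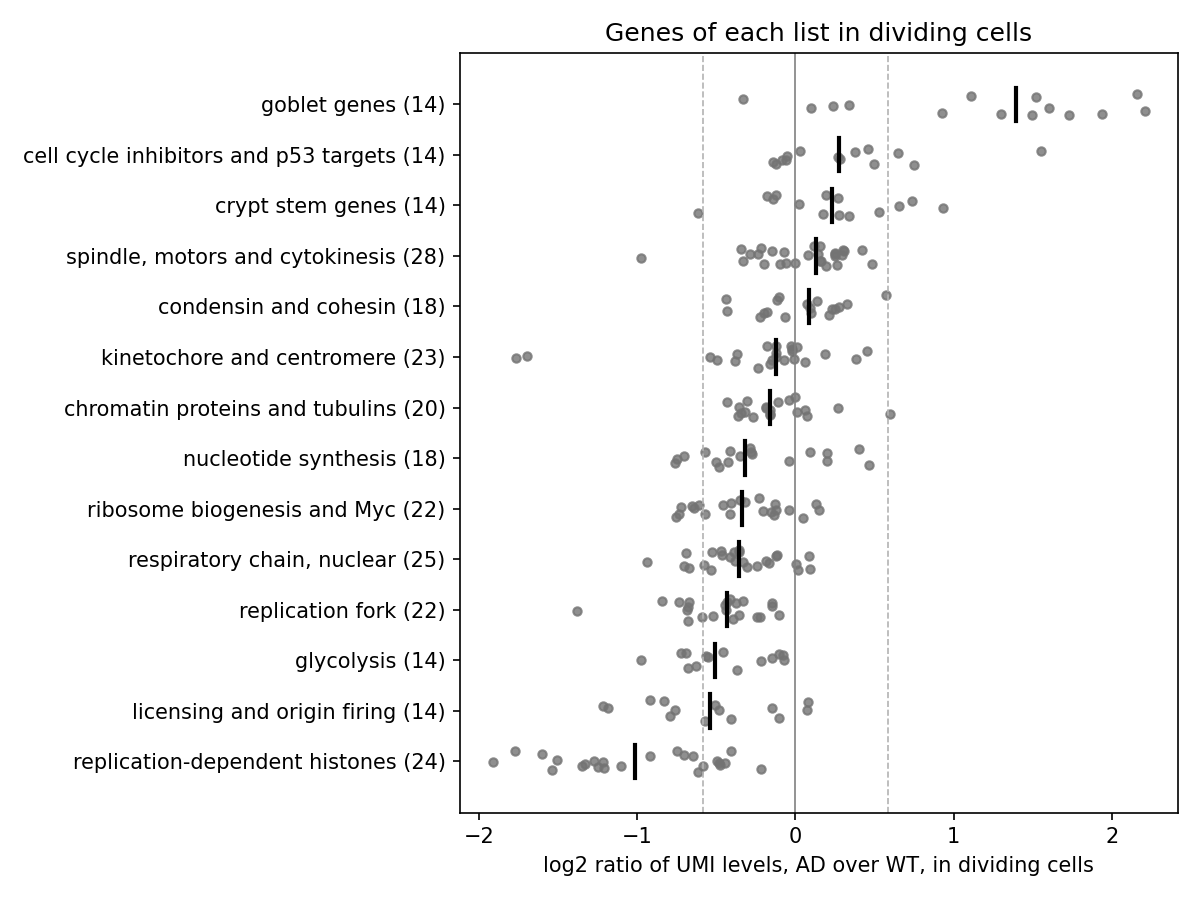
Log2 ratio of AD over WT in dividing cells (x axis) for each compared gene of 14 lists (y axis, number of genes in parentheses). Points are genes, black bars are list medians and dashed lines mark 1.5-fold. All 24 histone genes lay below 0 (median -1.01) and the goblet list had a median of 1.40.

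Crypt stem genes had a median of 0.23, with 3 of 14 past 1.5-fold upward and 1 downward. Their log2 ratios ranged from -0.62 to 0.93, and 4 of the 14 lay below 0. Slc12a2, a chloride cotransporter of crypt base cells, stood at 3.49 in AD and 2.09 in WT (0.74, 0.58 to 0.89), and the surface protein Cd24a at 6.64 in AD and 3.48 in WT (0.93, 0.82 to 1.04). Sox9, a transcription factor of the crypt, stood at 2.46 in AD and 2.15 in WT. Lgr5, the receptor that marks crypt base stem cells, had 28 UMIs in 14 AD cells and 33 UMIs in 19 WT cells, too few to be compared.

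Goblet genes had a median log2 ratio of 1.40, with 10 of 14 past 1.5-fold upward and 0 downward. With the epithelial share raised to at least 1% of UMIs, which is above the median share of Muc2-high dividing cells (0.528% in AD and 0.583% in WT), the median turned to -0.46. Muc2, the main mucin of the colon, stood at 62.0 in AD and 18.7 in WT dividing cells (1.73, 1.69 to 1.77). Clca1 stood at 29.4 in AD and 6.35 in WT (2.21), and Fcgbp, which binds mucin, at 19.7 in AD and 5.14 in WT (1.94). Spdef, a transcription factor of goblet cells, stood at 0.889 in AD and 0.315 in WT (1.49, 1.15 to 1.84), and Atoh1, the factor of secretory fate, at 0.770 in AD and 0.497 in WT (0.63, 0.31 to 0.95). Mptx1, a secreted pentraxin, stood at 186 in AD and 35.5 in WT (2.39). Non-dividing gated cells had a goblet list median of 0.64. In fibroblast-gene cells, Muc2 stood at 3.70 in AD and 0.774 in WT and Mptx1 at 4.01 in AD and 0.607 in WT, both higher in AD.

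Cells rich in Muc2 were a larger share of the dividing cells in AD. A level of at least 30 Muc2 UMIs per 10000, chosen after the values were seen, was used to mark Muc2-high cells. It is a range and not a cell type, and 8 AD and 6 WT dividing cells lay from 20 to under 50. Muc2-high cells were 31 of 109 AD (28.4%, 20.2 to 37.9) and 29 of 233 WT dividing cells (12.4%, 8.50 to 17.4), a ratio of 2.29 (1.33 to 3.93). In non-dividing gated cells they were 31.2% in AD and 12.2% in WT, a ratio of 2.56 (2.20 to 2.98). With at most 25% mitochondrial UMIs they were 31.0% of AD and 19.8% of WT dividing cells, and the interval of the ratio reached past 1 (1.57, 0.864 to 2.86). Within Muc2-high dividing cells alone the goblet list median was 0.33. Within Muc2-low ones it was 1.98, at list sums of 40.6 in AD and 14.8 in WT, beside sums of 10.2 in AD and 4.91 in WT fibroblast-gene cells. A few cells carried the Muc2-low sums, since the per-cell median was 16.4 in AD (5.06 to 749) and 8.83 in WT (0 to 383), and 9 AD and 3 WT dividing cells had from 10 to under 30 Muc2 UMIs per 10000.

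**Figure D5:**
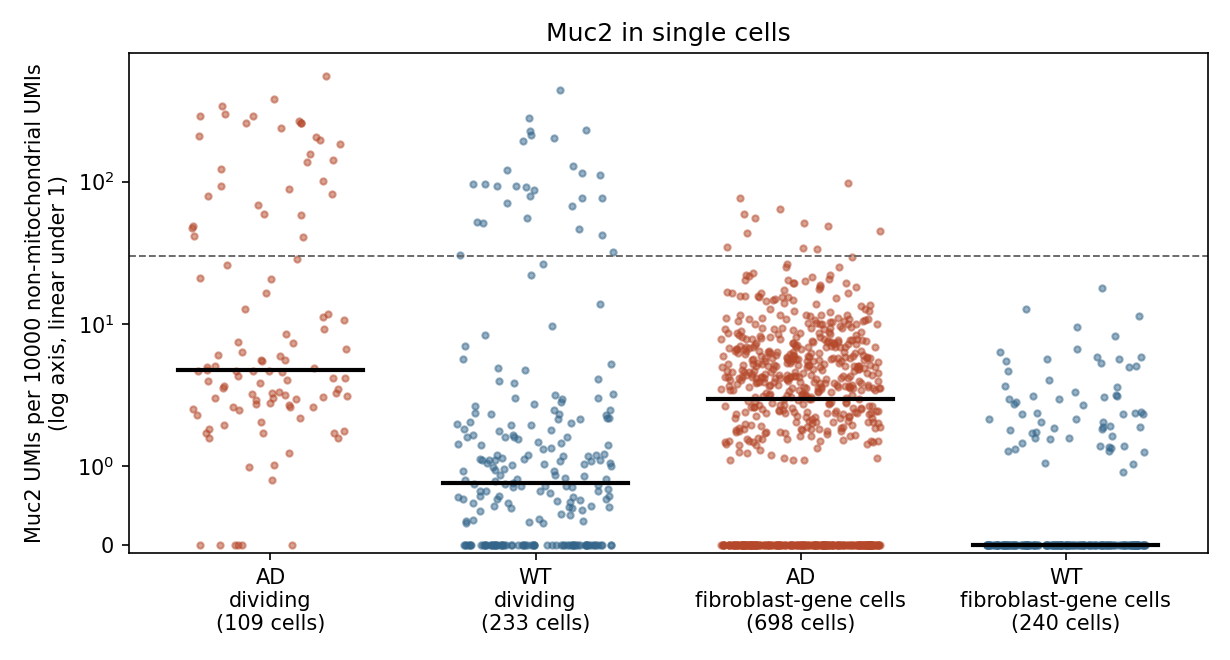
Muc2 UMIs per 10000 non-mitochondrial UMIs (y axis, log scale, linear under 1) in single dividing cells and fibroblast-gene cells, AD left of WT. Each point is a cell, black lines are medians (4.73 in AD and 0.795 in WT dividing cells) and the dashed line marks 30 per 10000.

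The lower dividing share held in Muc2-high and Muc2-low gated cells alike. Of Muc2-high gated cells 31 of 924 in AD (3.35%) and 29 of 244 in WT (11.9%) were dividing, a ratio of 0.282 (0.165 to 0.485). Of Muc2-low gated cells 78 of 2044 in AD (3.82%) and 204 of 1749 in WT (11.7%) were dividing, a ratio of 0.327 (0.249 to 0.427).

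The rule asked for mitosis genes in Muc2-high and Muc2-low dividing cells alike, so their levels in both are a description. Mki67 stood at 2.55 in Muc2-high and 2.71 in Muc2-low AD cells, and at 2.07 in Muc2-high and 2.86 in Muc2-low WT cells. Its log2 ratios of Muc2-high over Muc2-low cells were -0.09 in AD and -0.46 in WT. The spindle list summed to 15.98 in Muc2-high and 16.6 in Muc2-low AD cells, and to 15.7 in Muc2-high and 15.8 in Muc2-low WT cells. Secretory genes that the limit did not use differed widely. Retnlb, a goblet cell antimicrobial protein, was higher in Muc2-high cells by log2 ratios of 7.59 in AD and 8.04 in WT, and Ang4, a secreted ribonuclease, by 5.91 in AD and 7.99 in WT. Atoh1 was higher by 4.24 in AD and 5.65 in WT, and Spdef by 4.14 in AD and 6.35 in WT. Lower were Hao2 (-2.93 in AD and -3.96 in WT), the water channel Aqp4 (-2.80 in AD and -3.45 in WT), the membrane mucin Muc3 (-3.31 in AD and -2.66 in WT) and Gsdmc4, of the gasdermin family (-2.51 in AD and -2.95 in WT). Glycolysis genes had medians of -0.64 in AD and -0.64 in WT, beside -0.22 in AD and -0.12 in WT over all 3297 genes compared. The histone list summed to 8.41 in Muc2-high and 14.1 in Muc2-low AD cells, and to 14.4 in Muc2-high and 23.2 in Muc2-low WT cells, so its AD level was lower in both.

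Among the other lists, nucleotide synthesis genes had a median of -0.32 between the libraries' dividing cells (3 of 18 past 1.5-fold downward and 0 upward). Immediate early and dissociation genes, which respond within minutes to hours to handling of tissue, had 0.16, with 4 of 23 upward and 3 downward. Antimicrobial genes had -0.55, with 3 of 11 upward and 5 downward, and surface colonocyte genes -0.12, with 2 of 9 upward and 3 downward. Regulators of secretory and absorptive fate had 0.17, with 3 of 13 upward and 0 downward. Cyclins, kinases and phosphatases had -0.10 and chromatin proteins and tubulins -0.16, each with 1 gene past 1.5-fold. None of these medians passed 1.5-fold.

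Several single genes stood far apart between the libraries' dividing cells. Reg3b and Reg3g, antimicrobial lectins, had 0 UMIs in AD and 515 and 261 UMIs in WT, at least 75.3-fold and 38.2-fold lower in AD when 0 is set to a floor of 3 counts over the AD cells. The exact 95% intervals of the log2 ratios, which also cover the counting error of the WT sums, reached up to -5.93 and -4.95. The WT UMIs lay in 30 and 27 cells, with 80.6% and 69.3% of them in 5 cells. In non-dividing gated cells, Reg3b had 1 UMI in AD and 2538 in WT. Car1, a carbonic anhydrase of absorptive cells, stood at 1.03 in AD (27 cells) and 7.97 in WT (108 cells), a log2 ratio of -2.95 (-3.17 to -2.74), and 69.2% of AD and 76.6% of WT UMIs came from 5 cells. The surface protein gene Ly6a stood at 0.470 in AD and 1.63 in WT (-1.79), and Taco1, a mitochondrial translation factor, had 30 UMIs in AD and 290 in WT (-2.06). For Taco1 the ratio in non-dividing gated cells was -2.09.

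Among the genes highest in AD dividing cells, Ly6c2 had 100 UMIs in AD and 4 in WT (5.67). Of its AD UMIs 64% lay in 5 cells, and its ratio in non-dividing gated cells was 3.47. Camk2b, a calcium/calmodulin-dependent kinase subunit, had 384 UMIs in 44 AD cells and 36 in 20 WT cells (4.59, 4.11 to 5.14). Its ratio in non-dividing gated cells was 2.55. Cd74, the invariant chain of MHC class II, had 162 UMIs in AD and 34 in WT (3.42), with 64.8% of the AD UMIs in 5 cells. Complement C3 had 95.5% of its 89 AD UMIs in 5 cells. Sass6, a centriole assembly protein, had 95 UMIs in 59 AD cells and 42 in 32 WT cells (2.36), and its ratio in non-dividing gated cells was 3.48. The others of the 12 highest were Clps, Sval1, Pnliprp2, Mptx1, Itln1, Gsn and Ramp1, at 2.16 to 3.27. From 30.5% (Ramp1) to 79.3% (Pnliprp2) of their AD UMIs lay in 5 cells. Their ratios in non-dividing gated cells were 0.87 (Gsn) to 2.74 (Pnliprp2). Of the 12, only Sval1, Mptx1 and Gsn had at least 100 UMIs in WT dividing cells, so the rest met that minimum through AD.

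Markers of enteroendocrine and tuft cells were rare among the dividing cells. At least 3 enteroendocrine markers were found in 5 AD (4.59%) and 8 WT (3.43%) dividing cells. Chga, the hormone granule protein chromogranin A, had 317 UMIs in AD and 404 in WT, with 98.7% of the AD and 81.4% of the WT UMIs in 5 cells. At least 3 tuft cell markers were found in 0 AD and 4 WT (1.72%) dividing cells. Neither share was set beside that of the other gated cells.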

How the data were processed

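Colon of AD model and WT mice was measured with 10x libraries, 1 per genotype. The deposited values are whole-number UMI counts for each gene in each barcode, left unnormalized by the authors. Seurat 3.0.2, STAR, Cell Ranger 3.0.1 and the mm10 build are named in the submitters' processing notes. The AD library held 6675 barcodes and 38731915 UMIs, and the WT library 4146 barcodes and 26898149 UMIs, over 33083 features, and no barcode in either had fewer than 500 UMIs. Barcodes were 20 bases long.

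Members and gene lists were chosen with earlier results of these data known. UMIs were summed over cells of a library and divided by non-mitochondrial UMIs, per 10000. Log2 ratios used 0.5 added to each sum. A gene needed at least 100 UMIs, over both libraries' dividing cells for AD over WT, or over dividing and non-dividing cells in each library for that contrast. A list needed 5 compared genes. Beside list genes and the genes of the rule, the 12 highest and 12 lowest genes between libraries and the 15 highest and 10 lowest in dividing cells were open to naming, leaving out mitochondrial, ribosomal protein, immunoglobulin, sex-linked and other-cell marker genes and unnamed models. Igha, Jchain, the genes that split Muc2-high from Muc2-low cells and genes with opposite directions were named after their values were seen. Shares carry Clopper-Pearson, sums Poisson and ratios conditional exact intervals. Cells are not replicates, so no p-value is given. Doublets were scored with Scrublet in scanpy 1.11.5 at a rate of 0.06, and no cell was removed. Of 628 list genes 3 were not in the files. The log2 ratios of single genes and the interval of a ratio of shares were tested on simulated data, and list medians were not. Scripts used pandas 2.3.3, matplotlib 3.10.9, scipy 1.17.1 and numpy 2.4.6 under Python 3.11.15. Alternatives covered the limits on mitochondrial UMIs, mitosis genes, epithelial share, depth, immune markers, Muc2 and low counts.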

Additional observations from a re-analysis of the deposited data

Results flagged for a closer look

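Among the 9125 genes compared between dividing and non-dividing cells, a few had opposite directions past 1.5-fold in the 2 libraries. Each lay above the non-dividing gated cells in AD dividing cells and below them in WT ones. The difference between libraries was not tested. Camk2b had log2 ratios of dividing over non-dividing cells of 1.14 in AD and -0.90 in WT. Ctnna2 had 1.51 in AD and -0.92 in WT, and Tfcp2 1.34 in AD and -0.63 in WT. Cd200l1 had 0.84 in AD and -0.69 in WT, Cfap20dc 0.77 in AD and -0.64 in WT, and Spsb2 0.64 in AD and -0.63 in WT. Apart from Camk2b, with 384 UMIs in AD and 36 in WT dividing cells, each had between 30 and 103 UMIs in the dividing cells of a library.

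Barcodes with at least 4 of the 8 mitosis genes also lay outside the epithelial criterion, 84 in AD and 6 in WT. They were 2.45% (1.96 to 3.03) of AD and 0.468% (0.172 to 1.02) of WT barcodes outside it, a ratio of 5.23 (2.31 to 14.7). Their Mki67 level was 4.08 per 10000 in AD and 3.05 in WT. Jchain stood at 933 in AD and 760 in WT, and Igha at 1929 in AD and 1915 in WT.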

How the results depend on the processing

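No paired analysis was possible because each genotype had 1 library, and no library could be left out. The limits on cells were varied, and the cause of each shift below was not tested unless stated. Of 96 alternatives to a share ratio or a count, 71 stayed within their limits. The dividing share ratio of AD over WT (0.314) was 0.607 at 10% mitochondrial UMIs and 0.230 at an epithelial share of 1%. It stayed below 1 under these and the other alternatives run. Genes 2-fold higher in AD dividing cells (102) were 62 at 25% mitochondrial UMIs, 33 at 10%, 39 at an epithelial share of 1%, 156 per all UMIs, 346 at a minimum of 30 UMIs and 32 at 300. Genes 2-fold lower (106) were 57, 33 and 34 at the first 3 of these, and 359 and 23 at the 2 minimums. Genes 2-fold higher in dividing over non-dividing cells (265) were 31 at 10% mitochondrial UMIs, 442 at a minimum of 30 and 110 at 300. Genes 2-fold lower (283) were 182 at 25%, 40 at 10% and 447 at a minimum of 30. Fewer cells or another minimum change how many genes are compared. List medians past 1.5-fold (2) were 4 with at least 3 of 8 mitosis genes, at a minimum of 30 UMIs and in Muc2-low cells, 1 at 300, and 0 at an epithelial share of 1% and in Muc2-high cells. The goblet median reversed to -0.46 at an epithelial share of 1%, a limit above the median share of Muc2-high dividing cells (0.528% in AD and 0.583% in WT). The histone median ranged from -1.15 to -0.72 and kept its sign in 13 of 13 alternatives, the licensing median from -0.97 to -0.17, and the glycolysis median from -0.62 to -0.20. The spindle median ranged from -0.16 to 0.26. At 1000 UMIs per cell the median thinned count was 4 AD and 8 WT dividing cells, so shallow cells say little about division.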
